A study of Sus scrofa with 220 samples.

Results

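UCHL1, KIF5C, SLC10A4, GPR50, LTA4H and CAV2 were 6 of the 22840 gene entries measured in single cells of pig embryos. They were chosen by their measured counts, as genes near absent from the morula or the inner cell mass and high in the epiblast of the late blastocyst or the spherical embryo. Each symbol matched 1 Ensembl entry, and all 6 passed the filter on low values (TPM over 1 in at least 3 of the 220 cells, where TPM is a transcript level scaled for gene length and depth), which their high group alone would let them pass. The levels in the morula, the inner cell mass and the epiblast chose the genes, so they are given as a description with no test.

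Cells came from embryos flushed from artificially inseminated crossbred sows, untreated and with no genetic change. There were 47 cells labelled morula (M), 1 of them with no embryo in its identifier and the other 46 from 8 embryos. Early blastocysts (EB) gave 24 cells labelled ICM (inner cell mass) from 7 embryos and 28 labelled TE (trophectoderm) from 10. Late blastocysts (LB), freed of trophectoderm by immunosurgery, contributed 25 epiblast (EPI) and 36 hypoblast (HYPO) cells, taken from 4 and 5 embryos. Spherical embryos (Sph), from which both tissues were isolated by hand, contributed 48 EPI and 12 HYPO cells, taken from 4 and 3 embryos. A cell carried 1012604 to 5696373 counts on genes, with a median of 2006853.5. Levels are CPM (counts scaled to the library total) of the counts summed over the cells of one lineage in one embryo, scaled with TMM, and TPM is used where genes are compared, since it accounts for gene length. Embryos are named by the letters in the cell identifiers.

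The lineage labels were checked against marker genes. Markers were matched to entries by symbol. NANOG and SOX2 of the EPI list and SOX17 of the HYPO list found no match, and may be among the entries without a symbol. The 5 EPI markers matched were PRDM14, NODAL, SALL2, DNMT3B and SFRP2. They summed to 571 to 2565 CPM in LB EPI embryos and 1250 to 1564 in Sph EPI embryos, against 43.9 to 275.5 in HYPO embryos. The 6 HYPO markers summed to 197 to 1244 CPM in HYPO embryos and to at most 70.9 in EPI embryos. They also stood at 321 to 897 CPM in morulae, 89.15 to 514.5 in ICM and 79.2 to 416 in TE, which overlap the HYPO range. The TE markers GATA2, GATA3, DAB2, KRT8, KRT18 and CDX2 summed to 17920 to 58510 CPM in 9 of the 10 TE embryos. In the other, E6-ER, a single cell, 5 of these 6 genes were at 0 and the sum was 0.217 CPM, so it is called the library labelled EB TE. The same 6 genes summed to 1323 to 2768 CPM in LB HYPO and 17960 to 49250 CPM in Sph HYPO. The part of each gene, the keratins KRT8 and KRT18 included, was not separated in these sums. CDX2 was at 0 in every HYPO embryo, but also in every TE embryo except AC and AD. GATA2 was at 0 in LB HYPO embryo AN and Sph HYPO embryos C and E, and among TE embryos only in E6-ER.

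The epiblast is the pluripotent lineage from which the body of the embryo forms, and the hypoblast is the extraembryonic layer beside it. Both come from the inner cell mass, whereas the trophectoderm, which contributes to the placenta, is set aside earlier. The 6 genes share no pathway. UCHL1 is a deubiquitinating enzyme abundant in neurons, and KIF5C is a kinesin heavy chain, a motor that carries cargo along microtubules. SLC10A4 is an orphan member of the bile acid cotransporter family known from synaptic vesicles, and GPR50 is an orphan receptor related to the melatonin receptors. LTA4H turns leukotriene A4 into leukotriene B4 and is also an aminopeptidase, and CAV2 is a caveolin, which assembles with CAV1 in the coat of caveolae.

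The genes came on in 3 patterns. UCHL1, KIF5C and SLC10A4 were high in EPI at both stages, GPR50 was high only at LB, and CAV2 was high only at Sph. LTA4H was high in EPI at both stages but was as high in HYPO at LB.

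**Figure D1:**
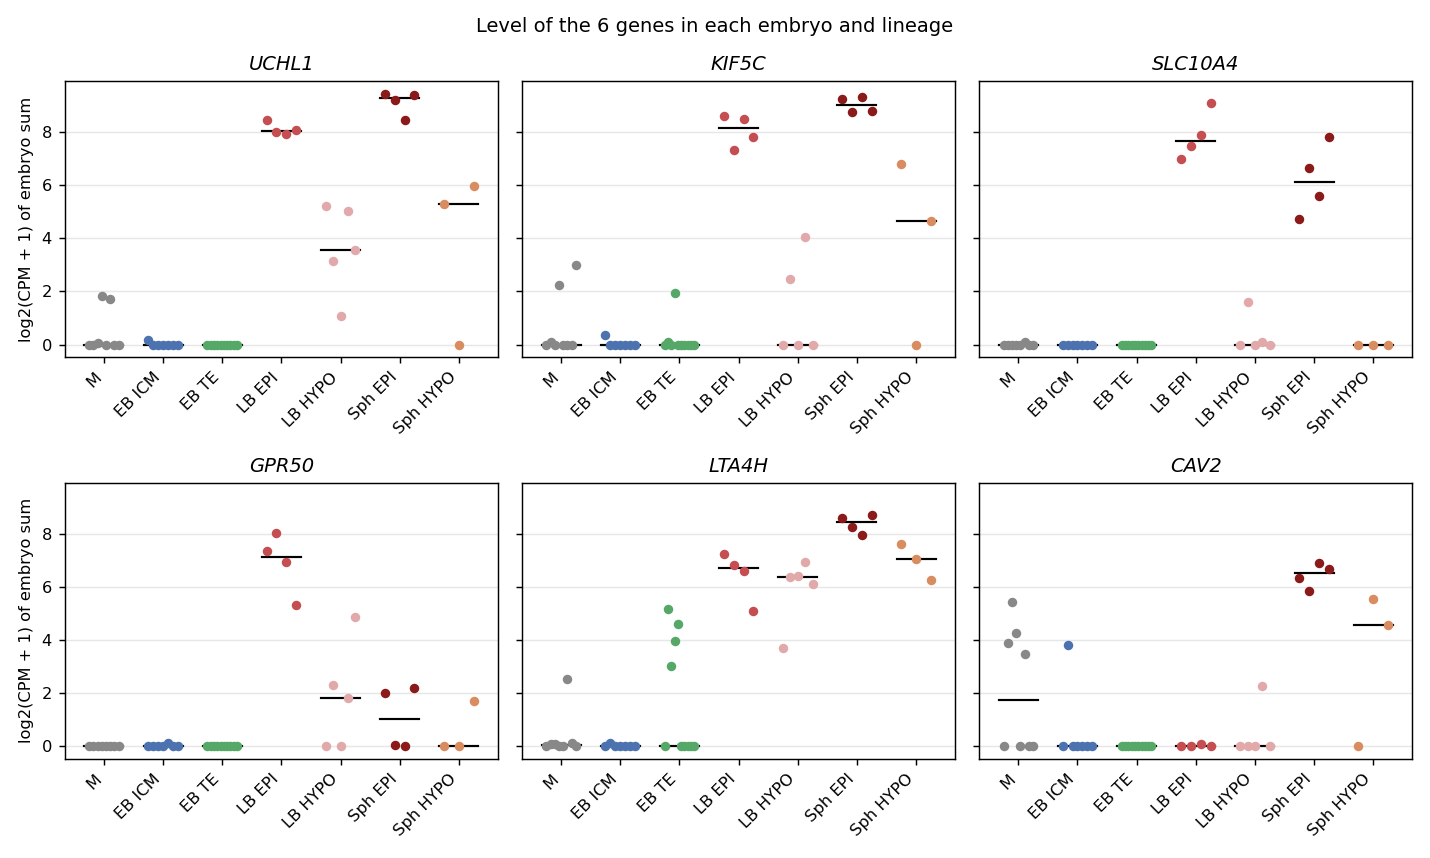
Level of each gene as log2(CPM + 1), with 1 point per embryo and lineage and a black bar at the group median; groups stand on the x axis in order of stage. GPR50 is high in LB EPI alone, CAV2 in Sph EPI but not LB EPI, and LTA4H in both EPI and HYPO, with all Sph EPI embryos above the Sph HYPO embryos.

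UCHL1 was at 0 CPM in all 10 TE embryos and reached 0.14 CPM, from 2 counts, in 1 of 7 ICM embryos. In morulae the lowest and median embryos were at 0 and the highest at 2.52 CPM. The LB EPI embryos AN, AO, AP and AQ stood at 350.1, 260.1, 243.5 and 268 CPM, and the Sph EPI embryos C, D, E and F at 704.6, 591, 353 and 676 CPM. All Sph EPI embryos lay above all LB EPI embryos, though E at Sph and AN at LB were nearly level. UCHL1 was over TPM 1 in all 25 LB EPI cells (95% interval 86.3 to 100%) and all 48 Sph EPI cells (92.6 to 100%), and it was the only member found in every EPI cell. Its mean was 655 TPM in LB EPI and 1385 TPM in Sph EPI, the highest of the 6 at both stages. From 2 counts in ICM, the ratio of LB EPI to ICM was 7272 with a counting interval of 2013 to 60050.

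UCHL1 was also present in part of the hypoblast. The LB HYPO embryos AL, AM, AN, AO and AP stood at 36.1, 7.84, 1.08, 32.1 and 10.7 CPM, all below every EPI embryo. Among Sph HYPO embryos, C stood at 37.9, E at 0 and F at 62.0 CPM. The gene was over TPM 1 in 15 of 36 LB HYPO cells (41.7%, interval 25.5 to 59.2%) and in 8 of 12 Sph HYPO cells (66.7%, 34.9 to 90.1%). Of the 15 LB HYPO cells, 14 carried at least 1 HYPO marker and 12 at least 1 EPI marker over TPM 1. By single genes, 13 carried PDGFRA, 1 PRDM14 and none NODAL. All 8 Sph HYPO cells with UCHL1 carried a HYPO marker and 7 an EPI marker, with NODAL in 4. The EPI marker DNMT3B had counts in every LB HYPO embryo, as the only EPI marker in AL and AN, and in most TE embryos. HYPO cells without UCHL1 were not counted in this way, so these marker counts cannot be tied to UCHL1. The part of cells with both kinds of marker in the UCHL1 level of HYPO was not tested. In LB HYPO cells over the threshold the median was 59.0 TPM, against 629 TPM over LB EPI cells.

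KIF5C followed UCHL1 closely. It reached 4 counts in ICM, all in embryo AA at 0.279 CPM, and 27 counts in TE, where the highest embryo stood at 2.85 CPM and the median at 0. Morulae had a lowest and median of 0 and a highest of 6.99 CPM. The LB EPI embryos AN, AO, AP and AQ stood at 392, 159, 358 and 226 CPM. The Sph EPI embryos C, D, E and F stood at 614, 439, 640.3 and 449 CPM, all above the LB embryos. In HYPO, KIF5C was at 0 in 3 of 5 LB embryos and at 4.57 and 15.6 CPM in AM and AO, while the Sph embryos C, E and F stood at 109.6, 0 and 24.3 CPM. It was over TPM 1 in 22 of 25 LB EPI cells (88.0%, 68.8 to 97.5%), 47 of 48 Sph EPI cells (97.9%, 88.9 to 99.9%), 3 of 36 LB HYPO cells and 5 of 12 Sph HYPO cells. Per length it was far below UCHL1, with a mean of 60.2 TPM in LB EPI and 99.9 TPM in Sph EPI.

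SLC10A4 was the most restricted of the genes high at both EPI stages. It had 1 count in all morula embryos and none in ICM, TE or Sph HYPO. The LB EPI embryos AN, AO, AP and AQ stood at 126, 177, 238 and 548 CPM. The Sph EPI embryos C, D, E and F stood at 25.6, 101, 47.2 and 227 CPM, so the groups overlapped, with a median of 208 CPM at LB and 74.1 CPM at Sph. Against the limit of 3 counts over the ICM group, the level was at least 6004-fold higher in LB EPI and at least 2247-fold higher in Sph EPI. It was over TPM 1 in 23 of 25 LB EPI cells (92.0%, 74.0 to 99.0%) and 39 of 48 Sph EPI cells (81.3%, 67.4 to 91.1%). In HYPO, 1 of 36 LB cells was over TPM 1, in embryo AM, and no Sph cell of 12 was. For the Sph cells the exact interval reached 26.5%, and a limit of 3 cells in 12 stood at 25%. Means were 444 TPM in LB EPI, below UCHL1 alone, and 152 TPM in Sph EPI, below UCHL1 and LTA4H.

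GPR50 was high in the late blastocyst epiblast and in no other group. The LB EPI embryos AN, AO, AP and AQ stood at 162, 259, 123 and 39.2 CPM, while the Sph EPI embryos C, D, E and F stood at 2.98, 0.0416, 0 and 3.59 CPM, with no overlap. It had no count in M or TE and 1 count in ICM. In LB HYPO the embryos AM, AO and AP stood at 3.94, 2.54 and 28.4 CPM and the others at 0, all below every LB EPI embryo. Cells over TPM 1 made up 17 of 25 in LB EPI (68.0%, 46.5 to 85.1%), 6 of 48 in Sph EPI (12.5%, 4.73 to 25.3%) and 3 of 36 in LB HYPO (8.33%, 1.75 to 22.5%). Its mean was 78.5 TPM in LB EPI and 1.57 TPM in Sph EPI. Among LB EPI embryos it was over TPM 1 in 2 of 2 cells of AN, 5 of 5 of AO, 6 of 8 of AP and 4 of 10 of AQ.

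LTA4H was high outside the epiblast as well. It reached 1 count in ICM, and in morulae the lowest, median and highest embryos stood at 0, 0.0249 and 4.79 CPM. In TE it was present in 4 of 10 embryos, AB, AC, AD and AE, at 35.6, 7.08, 14.8 and 23.6 CPM, and at 0 in the other 6. The LB EPI embryos AN, AO, AP and AQ stood at 153, 112, 96.4 and 33.2 CPM. The LB HYPO embryos AL, AM, AN, AO and AP stood at 12.1, 81.9, 85.4, 124 and 68.0 CPM, a range that overlapped that of EPI. The Sph EPI embryos C, D, E and F stood higher, at 391, 306, 251 and 425 CPM, and the Sph HYPO embryos C, E and F lower, at 198, 131 and 75.2 CPM. Shares of cells over TPM 1 were 76.0% in LB EPI (54.9 to 90.6%), 77.8% in LB HYPO (60.9 to 89.9%), 97.9% in Sph EPI (88.9 to 99.9%) and 83.3% in Sph HYPO (51.6 to 97.9%). On mean TPM, 57.8 in LB EPI, 67.4 in LB HYPO and 72.2 in Sph HYPO lay close together, and 237 TPM in Sph EPI lay above them.

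CAV2 was a spherical stage gene. The Sph EPI embryos C, D, E and F stood at 79.7, 57.3, 118 and 103 CPM, whereas LB EPI had a single count over all 4 embryos. Among Sph HYPO embryos, C was at 0, E at 46.1 and F at 22.7 CPM, and only embryo AO of LB HYPO had any count, at 3.89 CPM. CAV2 was not absent from the early stages: 4 of 8 morulae (S, T, U and W) stood at 13.9, 42.3, 18.1 and 10.04 CPM, the lowest was at 0 and the median at 5.02 CPM. In ICM all of its 143 counts came from embryo AC, at 13.2 CPM, and TE had none. Cells over TPM 1 were 27 of 48 in Sph EPI (56.3%, 41.2 to 70.5%), 3 of 12 in Sph HYPO, 6 of 47 in M, 1 of 24 in ICM and 0 of 25 in LB EPI. For LB EPI the exact interval reached 13.7%, and a limit of 3 cells in 25 stood at 12%. The mean over Sph EPI cells was 41.8 TPM, but over the cells that carried it the median was 58.9 TPM.

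**Figure D2:**
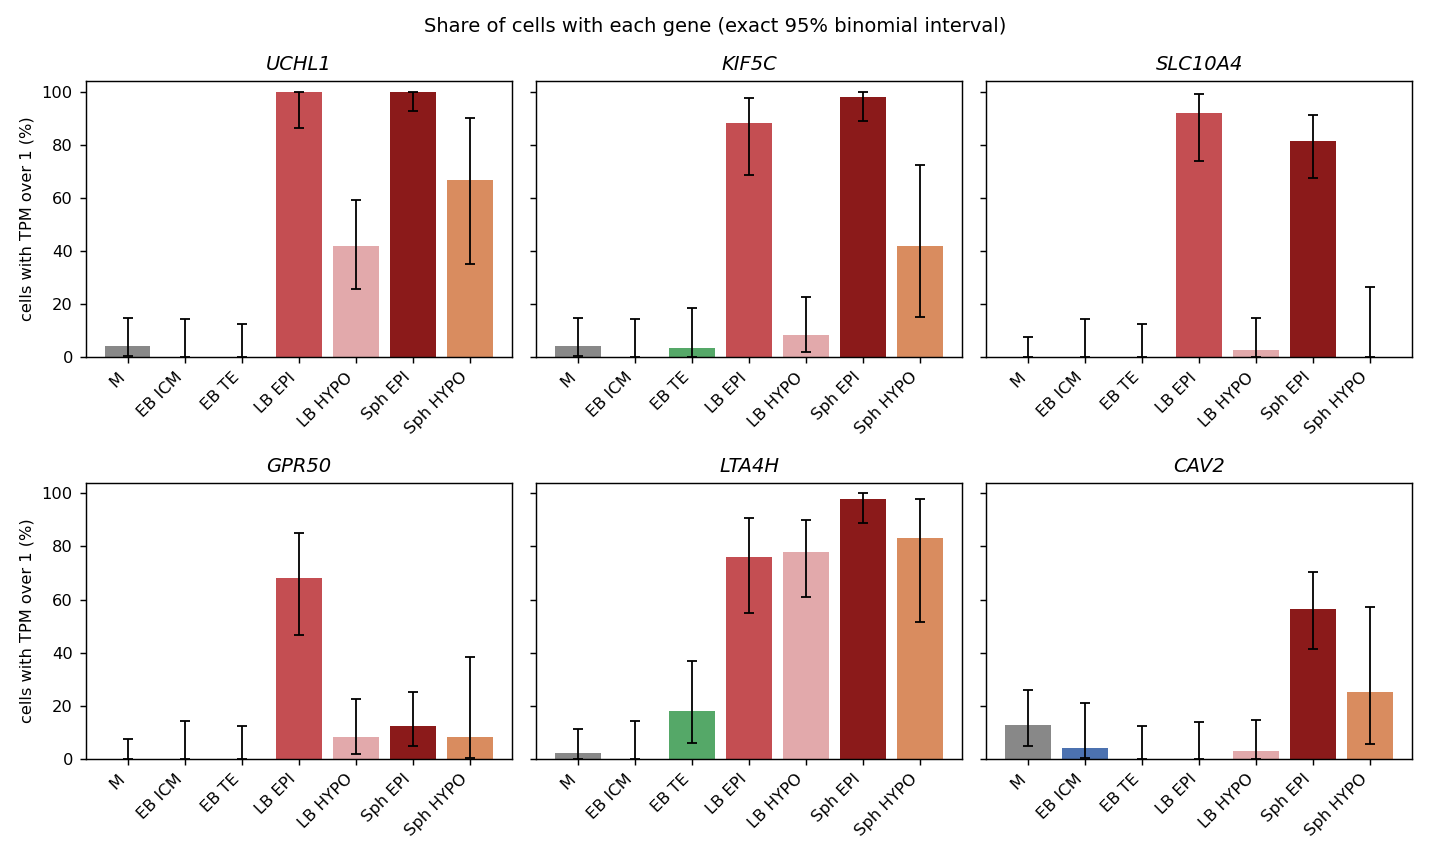
Share of cells with TPM over 1 for each gene in each group, with exact Clopper-Pearson 95% binomial intervals that cover counting error only. UCHL1 stands at 100% in both EPI groups and at 41.7 and 66.7% in HYPO, whereas LTA4H stands at 76.0% or more in all EPI and HYPO groups.

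The members differed in how near they came to absence. CAV2 had the highest median of the 6 in morulae, 5.02 CPM. Taking for each gene its higher EPI group, medians ran from 91.1 CPM for CAV2 to 633 CPM for UCHL1, both in Sph EPI. The rule gave no numeric limit, so no gene just outside it can be listed.

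Counted per cell, EPI cells held more of the genes than early cells, and HYPO cells overlapped with both. Of 47 morula cells, 37 had none of the 6 genes over TPM 1, as did 23 of 24 ICM cells and 22 of 28 TE cells. Every LB EPI cell had 2 to 5 of them, with a median of 4, and every Sph EPI cell had 3 to 6, with a median of 5. LB HYPO cells had 0 to 4 with a median of 1, including 4 cells with none and 18 with 1, and Sph HYPO cells 1 to 4 with a median of 2.5. All 6 genes were found together in 2 cells, both of Sph EPI. These counts restate the choice of the genes for M, ICM and EPI, but not for TE and HYPO.

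**Figure D3:**
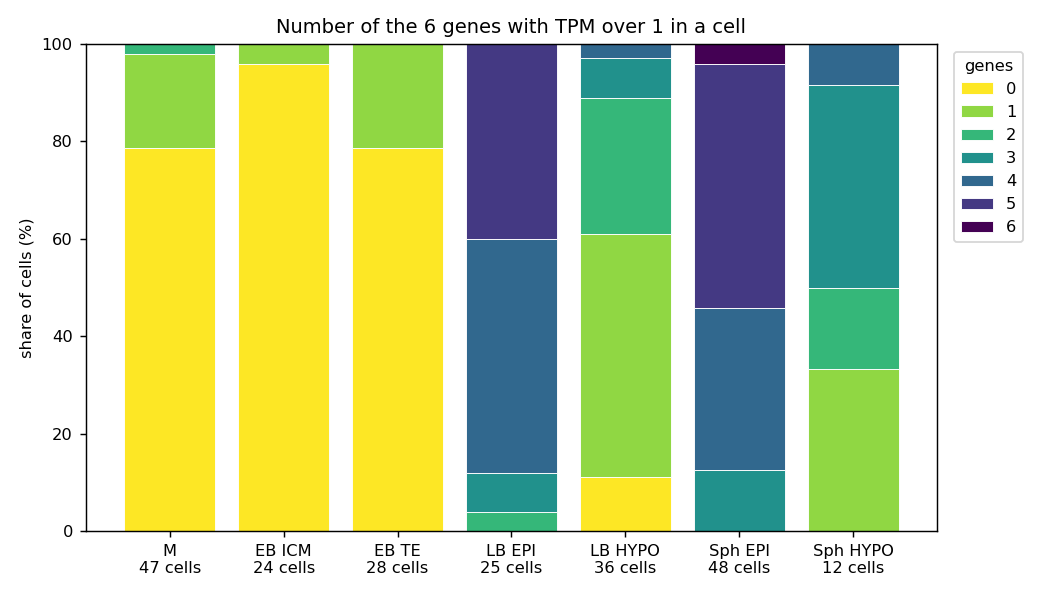
Share of cells in each group (y axis, percent) by how many of the 6 genes were over TPM 1, from 0 (yellow) to 6 (dark violet). EPI cells hold 2 or more of the genes throughout, and HYPO cells, with 0 to 4, overlap both EPI and the early stages.

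Within EPI cells the genes were often found in the same cell. UCHL1 and KIF5C were both over TPM 1 in 22 of 25 LB EPI cells and 47 of 48 Sph EPI cells. SLC10A4 and KIF5C were found together in 20 LB EPI cells, with 2 cells carrying KIF5C alone and 3 SLC10A4 alone. GPR50 and SLC10A4 were together in 15 LB EPI cells, and GPR50 alone in 2. In Sph EPI, CAV2 and SLC10A4 were together in 23 cells and apart in 20, of which 4 carried CAV2 alone. Over all 41 embryo sums Pearson's r of log2(CPM + 1) was 0.94 for UCHL1 with KIF5C and 0.87 for KIF5C with SLC10A4, but -0.10 for GPR50 with CAV2. These sums share embryos and were in part the ground of the choice, so the values are a description.

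Embryos that gave cells to both EPI and HYPO let the lineages be set side by side. At LB these were AN, AO and AP, and at Sph C, E and F. UCHL1, KIF5C and SLC10A4 were higher in EPI in 3 of 3 embryos at both stages, and GPR50 in 3 of 3 at LB. In AO, for example, UCHL1 stood at 260.1 CPM in EPI and 32.1 in HYPO, and SLC10A4 at 177 and 0.0793. LTA4H was higher in EPI in AN (153 against 85.4 CPM) and AP (96.4 against 68.0) but not in AO (112 against 124), and it was higher in EPI in all 3 Sph embryos. CAV2 was higher in EPI in all 3 Sph embryos, from 79.7 against 0 CPM in C to 118 against 46.1 in E. Some sums rest on few cells, such as 2 HYPO cells each in AP, C and E. The genes were chosen for high EPI levels, so these counts are a description. The share of all genes higher in EPI in 3 of 3 embryos is not given here.

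**Figure D4:**
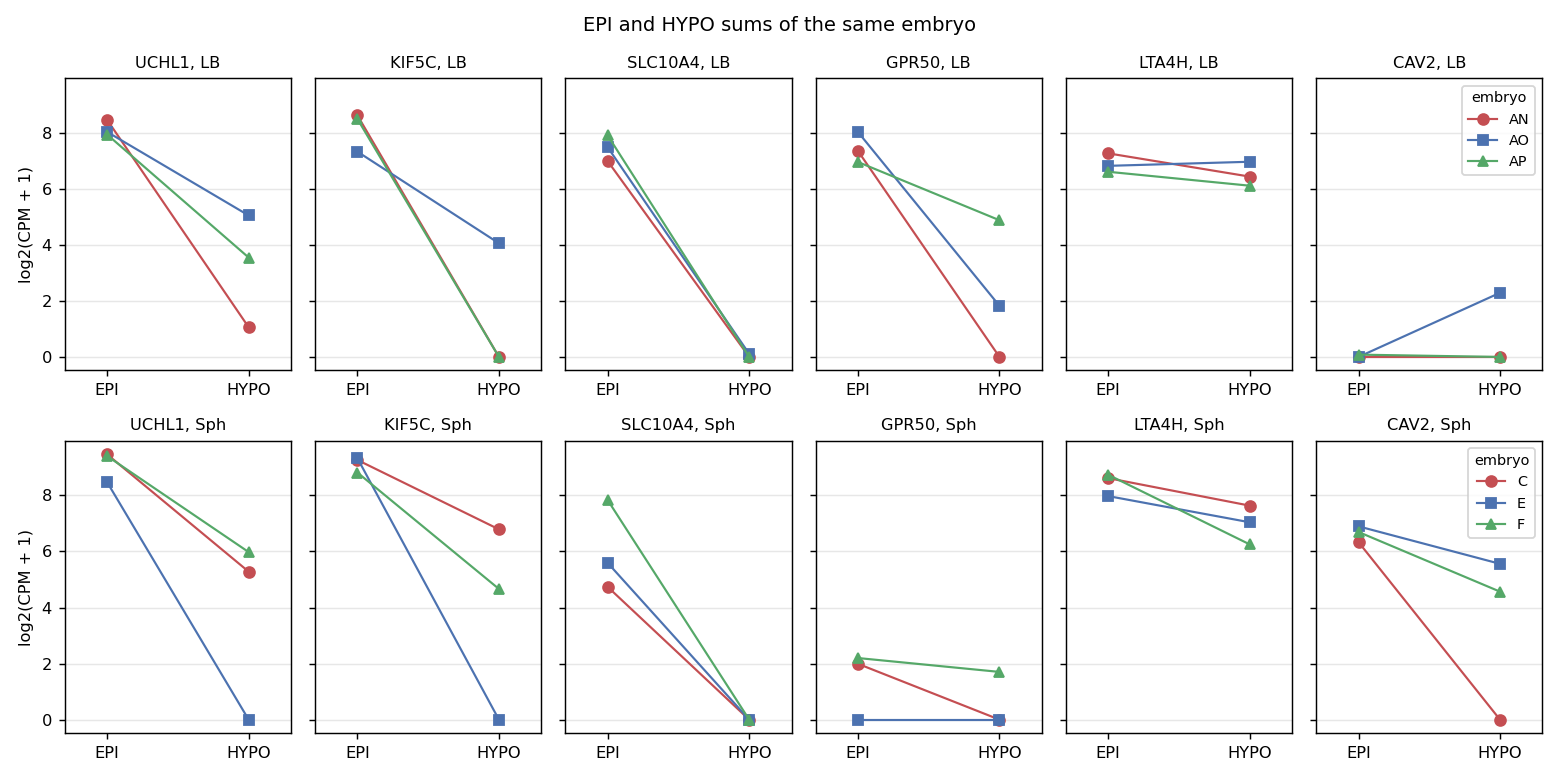
Levels as log2(CPM + 1) in the EPI and HYPO sums of the same embryo, joined by a line, for the 3 LB embryos (top) and the 3 Sph embryos (bottom). SLC10A4 is far lower in HYPO than in EPI in all 6 embryos, while LTA4H lines at LB run in both directions. High EPI levels were part of the choice of the genes.

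TE and HYPO levels were not used to choose the genes, so the members were tested between them with edgeR's quasi-likelihood test, adjusted over all 14721 genes tested. Whether a choice on early absence and late EPI presence favours a difference from TE to HYPO was not tested. The members were also chosen with earlier results of these data known. SLC10A4 and CAV2 met the filter through other groups, with 1 of 36 LB HYPO cells and 0 of 28 TE cells over TPM 1 for each. Their values in TE against LB HYPO are therefore a description. For GPR50 this was 1 of 12 Sph HYPO cells and 0 of 28 TE cells, so its values in TE against Sph HYPO are a description too. EB TE against LB HYPO asks whether the genes also came on between extraembryonic lineages of the earlier and the later blastocyst, although lineage and stage cannot be told apart in it. SLC10A4 and CAV2 aside, UCHL1 was the only member called, where 2.83% of all genes were called and 2.17% were called higher in LB HYPO. With TE as the base it came out at least 380-fold higher in LB HYPO, from 1108 counts in 5 of 5 embryos against 0 in 10 (edgeR adjusted p = 0.0173). Without LB HYPO embryo AO the adjusted p rose to 0.0517, and without the library E6-ER it was 0.0158. With the cells of the first 4 or the last 4 library pools alone it was 0.0879 and 0.205.

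The other 5 members did not pass. GPR50 in LB HYPO came out at least 88.9-fold higher (edgeR adjusted p = 0.0541), with 101 of its 259 counts from the 2 cells of embryo AP. SLC10A4, as a description, was at least 17.2-fold higher, from 50 counts of which 48 were in embryo AM. Its fitted log2 difference, TE minus LB HYPO, was -4.84 with AM and -1.31 without. CAV2, also as a description, was at least 33.6-fold higher, from 98 counts in 1 embryo. LTA4H differed by -3.22 ± 1.54 on the log2 scale (SE, TE minus LB HYPO, adjusted p = 0.215), and KIF5C by -3.73 ± 1.96 (adjusted p = 0.284).

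Against Sph HYPO, TE was again at 0 for UCHL1, which was at least 1012-fold higher in Sph HYPO from 1161 counts in 2 of 3 embryos (edgeR adjusted p = 0.0486). It was the only member called, where 1.89% of all genes were called and 1.51% were called higher in Sph HYPO. This call was lost in 16 of 21 alternatives, with adjusted p from 2.2e-05 to 0.145. Leaving out Sph HYPO embryo F gave 0.124 and leaving out the library E6-ER 0.0510. Other members passed in its place in some settings: KIF5C without TE embryo AD (edgeR adjusted p = 0.00889, UCHL1 0.0629) and in the first 4 pools (0.0444, UCHL1 0.145), and CAV2 without Sph HYPO embryo C (0.0365, UCHL1 0.0529). CAV2 was at least 449-fold higher in Sph HYPO (edgeR adjusted p = 0.0610) and did not pass. GPR50, as a description, was at least 32.2-fold higher there. KIF5C differed by -7.16 ± 2.14 on the log2 scale (SE, TE minus Sph HYPO, edgeR adjusted p = 0.0943) and LTA4H by -4.07 ± 1.77 (adjusted p = 0.266). SLC10A4 had no count in either group. The TE markers stood at 17960 to 49250 CPM in Sph HYPO and 17920 to 58510 CPM in TE other than E6-ER; their part in these values was not tested.

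Between LB HYPO and Sph HYPO none of the 6 genes was called, and none had an unadjusted p under 0.05 in edgeR, where 0.163% of all genes were called; DESeq2 called 0 of them too. Differences, LB minus Sph on the log2 scale with SE, were -0.99 ± 1.70 for UCHL1, -3.62 ± 2.21 for KIF5C, 3.12 ± 2.88 for GPR50, -0.95 ± 0.81 for LTA4H and -4.91 ± 2.56 for CAV2. SLC10A4 had 50 counts in LB HYPO, 48 of them in AM, and 0 in Sph HYPO, at least 6.57-fold higher in LB HYPO. With standard errors of 1.70 or more for all but LTA4H, differences of several-fold were not detectable with 5 and 3 embryos. The TE markers differed between the groups, at 1323 to 2768 CPM in LB HYPO and 17960 to 49250 CPM in Sph HYPO, and their part was not tested. The paper inferred sex from Y chromosome expression, and gives most LB HYPO and TE cells as female and all Sph HYPO cells as male. Sex and group therefore cannot be told apart in the comparisons with Sph HYPO.

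The relatives and pathway partners of the genes were followed in EPI, since the rule did not use them. Their lists were chosen with earlier results of these data known, so the calls below are not independent of the choice. Of 58 names in 6 lists, 40 matched an entry by symbol and 35 passed the filter. The unmatched names may be among the entries without a symbol. Between ICM and LB EPI 2 of the 35 were called, both higher in LB EPI, where 2.91% of all genes were called. Between ICM and Sph EPI 3 of the 35 were called, all higher in Sph EPI, against 6.73% of all genes. Between LB EPI and LB HYPO edgeR called 0 of 35, against 1.92% of all genes. In edgeR 10 of the 35 had an unadjusted p under 0.05, as did 2943 of all 14721 genes. DESeq2 called 5 of the 35, and it also called more of all genes than edgeR, as listed under the processing alternatives. Between Sph EPI and Sph HYPO 1 of 35 was called, against 1.13% of all genes. With the embryo as a block, the genes called overall fell from 283 to 20 at LB and from 167 to 82 at Sph. The TE markers summed to 130 to 595 CPM in ICM, 2871 to 4898 CPM in LB EPI and 2674 to 10860 CPM in Sph EPI. In LB EPI embryo AN, GATA2, GATA3, DAB2 and CDX2 were at 0, so its 4613 CPM came from KRT8 and KRT18 alone. GATA2 was at 0 in LB EPI embryos AN, AO and AQ and Sph EPI embryos C, D and E, but not in AP and F. The part of these markers in the ICM comparisons was not tested. The median log2 difference of the 35 genes was -0.65 for ICM minus LB EPI (all genes -0.11), -0.22 for ICM minus Sph EPI (all genes -0.30), 0.00 for EPI minus HYPO at LB (all genes 0.00) and 0.11 at Sph (all genes 0.57).

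Of the caveolae genes edgeR called CAV1. It is the principal coat protein of caveolae and the neighbour of CAV2 in the RefSeq annotation of the Sscrofa11.1 assembly, and it had no count in any of 7 ICM embryos. The Sph EPI embryos C, D, E and F stood at 287, 48.7, 169.5 and 164 CPM. Its level was at least 3202-fold higher in Sph EPI (edgeR adjusted p = 0.000274), and the call held in 19 of 19 alternatives. At LB, only EPI embryo AO had counts, at 4.19 CPM. The Sph HYPO embryos C, E and F stood at 0, 0.323 and 0.0610 CPM, and the ratio of Sph EPI to Sph HYPO from 2 HYPO counts was 2037 (counting interval 564 to 16820, edgeR adjusted p = 0.00441). With the embryo as a block this adjusted p was 0.0177, and with all 7 groups in one model it was 0.219.

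In Sph EPI cells CAV1 was found more widely than CAV2, over TPM 1 in 45 of 48 cells with a mean of 102.5 TPM against 41.8 TPM for CAV2. Both were found in 25 cells, CAV1 alone in 20, CAV2 alone in 2 and neither in 1. Outside Sph EPI the pair parted: the 6 morula cells, the 1 ICM cell, the 1 LB HYPO cell and the 3 Sph HYPO cells with CAV2 all lacked CAV1. The other 5 caveolae genes tested were not called by edgeR in the 4 comparisons, while DESeq2 called CAVIN3, PACSIN2 and EHD2 in 1 each. In these calls CAVIN3 and EHD2 were higher in EPI and PACSIN2 in HYPO. EHD2, an ATPase at the neck of caveolae, had 1187 counts in Sph EPI and 1 in Sph HYPO (adjusted p = 0.159 with edgeR and 1.25e-05 with DESeq2). FLOT1, a flotillin of related membrane domains, had the highest mean of this list in LB EPI, at 29.1 TPM.

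Among kinesin genes, KIF5A, the other neuronal kinesin-1 heavy chain, was at 0 in ICM and stood at 5.15, 2.54, 33.6 and 15.1 CPM in the Sph EPI embryos C, D, E and F. It was at least 201-fold higher in Sph EPI (edgeR adjusted p = 0.0183), and the call held in 16 of 19 alternatives. Without embryo F the adjusted p was 0.0536, in the first 4 pools 0.121 and in the last 4 pools 0.135. It was far scarcer than KIF5C, at 5.92 TPM and in 11 of 48 Sph EPI cells, 10 of which also carried KIF5C. KIF5B, the heavy chain found in most tissues, was over TPM 1 in all 220 cells, with mean values from 114 to 148 TPM in the 7 groups. KIF5C stood at 99.9 TPM beside 114.5 TPM of KIF5B in Sph EPI, and at 60.2 beside 147.5 TPM in LB EPI. The other 8 kinesin light chain and mitochondrial adaptor genes tested were not called by edgeR in any of the 4 comparisons. DESeq2 called TRAK1 and RHOT1 between EPI and HYPO at LB and KLC2 at Sph. In these calls TRAK1 and KLC2 were higher in EPI and RHOT1 in HYPO. TRAK1, an adaptor that links kinesin-1 to mitochondria, had 905 counts in LB EPI and 4 in LB HYPO (adjusted p = 0.0655 with edgeR and 5.17e-08 with DESeq2).

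**Figure D5:**
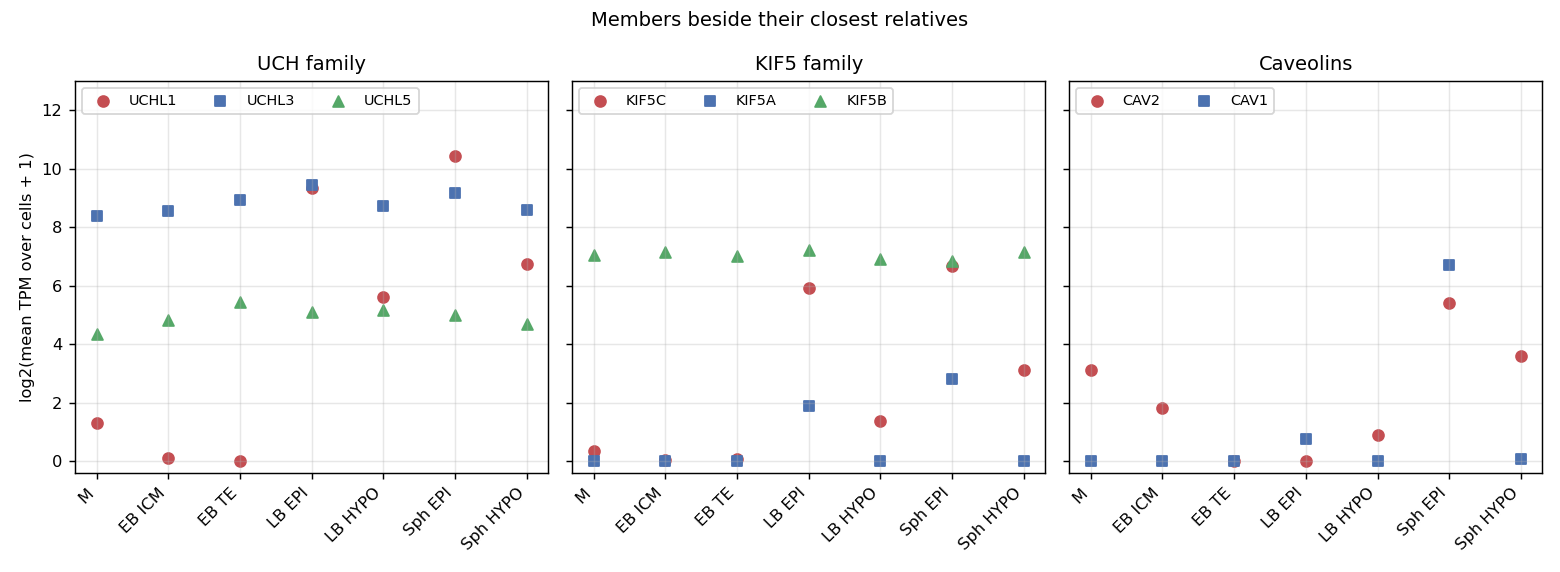
Mean TPM over cells, as log2(TPM + 1), in each group for UCHL1, KIF5C and CAV2 beside their closest relatives. UCHL3 and KIF5B are present in all 7 groups, while KIF5A and CAV1 stand highest in Sph EPI.

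UCHL3, the nearest relative of UCHL1, was present throughout, with a mean from 332 TPM in M to 691 TPM in LB EPI, and was called in none of the 4 comparisons by edgeR or DESeq2. UCHL1 stood at 0.0695 TPM beside 378 TPM of UCHL3 in ICM, at 655 beside 691 TPM in LB EPI and at 1385 beside 580 TPM in Sph EPI. Of the 5 ubiquitin genes tested, UBB, a polyubiquitin gene, rose between ICM and LB EPI. The ICM embryos stood between 3172 and 4501 CPM with a median of 3752, and the LB EPI embryos AN, AO, AP and AQ at 8056, 11590, 8493 and 5231 CPM, without overlap. The difference was -1.17 ± 0.17 on the log2 scale (SE, ICM minus LB EPI, edgeR adjusted p = 0.00139). In LB HYPO UBB stood at 7505 to 11350 CPM, overlapping LB EPI (difference -0.13 ± 0.21, SE, EPI minus HYPO, edgeR adjusted p = 0.857), and it was called higher there than in TE (edgeR adjusted p = 2.26e-06) and in Sph HYPO (0.00211). In Sph EPI, at 3442 to 7559 CPM, it overlapped the ICM range and was not called (edgeR adjusted p = 0.143).

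Leukotriene pathway genes gave 2 calls by edgeR among the 10 tested. DESeq2 also called ALOX5, LTB4R2, NPEPPS, PTGR1 and LTC4S in at least 1 of the 4 comparisons, each time lower in EPI. The ALOX5 call, between ICM and LB EPI, rested on counts in 2 of 7 ICM embryos (edgeR adjusted p = 0.153). ALOX5 also had counts in 3 of 4 Sph EPI embryos and none in Sph HYPO. PLA2G4A, the phospholipase that releases arachidonic acid, had 1 count in ICM and stood at 0, 30.9, 32.2 and 8.24 CPM in the LB EPI embryos AN, AO, AP and AQ (edgeR adjusted p = 0.0497, ratio 1135, counting interval 203 to 44860). That call was kept in 2 of 19 alternatives. PLA2G4A was not particular to EPI, with counts in 6 of 8 morulae (up to 117.5 CPM), 4 of 10 TE embryos (up to 75.7 CPM) and 3 of 5 LB HYPO embryos (up to 74.1 CPM). DPEP1, a dipeptidase that acts on leukotriene D4, was at 0 in ICM and stood at 32.6, 4.33, 13.4 and 10.04 CPM in the Sph EPI embryos C, D, E and F, at least 288-fold higher (edgeR adjusted p = 0.0149). The call held in 16 of 19 alternatives. Without embryo C the adjusted p was 0.0516, in the first 4 pools 0.0546 and in the last 4 pools 0.134. NPEPPS, another aminopeptidase, was the highest of this list in EPI, at 58.7 TPM in LB and 49.3 TPM in Sph, and stood at 230.5 and 185 TPM in the HYPO of those stages (edgeR adjusted p = 0.0549 and 0.0941). None of the 4 SLC10 genes tested was called by edgeR, while DESeq2 called SLC10A3 between ICM and Sph EPI (higher in ICM, adjusted p = 8.08e-05). It was also the highest of them in LB EPI, at 16.7 TPM. The melatonin receptors MTNR1A and MTNR1B both fell below the filter.

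For each member the 3 genes with a symbol whose log2(CPM + 1) was most like its own over the 41 embryo sums were listed by Pearson's r, as a description. For UCHL1 these were SLC1A5 (0.92), DYRK3 (0.91) and ADGRL2 (0.91). For KIF5C they were NODAL (0.94), ABTB3 (0.94) and ADGRL2 (0.92), and for SLC10A4 RRAGD (0.97), GLI2 (0.97) and CHRNA3 (0.97), all near 0 in M, ICM and TE. ENTPD1 (0.88), SLCO5A1 (0.87) and CAPN6 (0.86) were most like GPR50. LTA4H was nearest to UPK1B (0.89), CLU (0.86) and SLC1A5 (0.86), of which CLU had its highest median, 1207 CPM, in Sph HYPO. CAV2 had the weakest likeness, to PIMREG (0.71), PCOLCE2 (0.70) and ITM2A (0.70).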

How the data were processed

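Embryos were dissociated and single cells were sequenced with Smart-seq2, which reads along polyadenylated transcripts and does not mark strand, so antisense reads cannot be told apart. The authors aligned reads with HISAT2 2.1.0, counted them per Ensembl gene with HTSeq and deposited the raw counts per cell, and they deposited TPM values derived from these. Symbols came from a gene name table covering 11437 of the identifiers. The 22840 entries were used as deposited, and the embryo was read from the letters of the cell identifier.

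Counts were summed per embryo and lineage (41 sums) and tested with edgeR 4.0.16 (TMM, quasi-likelihood F test, Benjamini-Hochberg over 14721 genes, threshold 0.05) under R 4.3.3, since cells of 1 embryo are not replicates. Standard errors are the log2 fold change divided by the square root of F. A fold against a group at 0 is a lower bound against 3 counts over that group. Shares of cells carry exact 95% intervals from scipy 1.17.1. Intervals, counting intervals and limits cover counting error only. Embryos are biological replicates, but the dams are not given in the sources used here. No cells had identical counts. The fit was tested on simulated data.

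EPI and HYPO of the same embryo are paired by origin. Residual correlations of the same embryo were 0.00 to 0.082 at LB and 0.023 to 0.217 at Sph over 3 pairs each. The embryo was entered as a block among the alternatives, which were DESeq2 1.42.0, no TMM, no filter, limma 3.58.1 on log2(TPM + 1) or log2(TPM + 0.1), all 7 groups in one model, the first 4 or last 4 of the 8 library pools, and each embryo left out. Named genes were the 6 members, the pathway list genes called or highest in EPI, and the 3 genes most like each member; EHD2, TRAK1, the list genes called by DESeq2 alone, the relatives UCHL3 and KIF5B and all marker values were added after values were seen. The members and lists were chosen with earlier results of these data known.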

Additional observations from a re-analysis of the deposited data

Results flagged for a closer look

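Within groups of 4 to 10 embryos, the gap of the highest or lowest embryo to its neighbour was compared with Dixon's limit in the 25 groups where a member had more than 3 counts in some embryo. In 7 of them 1 embryo stood apart. The limit is set for normally distributed values, so its rate of about 1 in 20 does not hold for groups mostly at 0. In 6 of the 7 the other embryos were at or near 0 and the embryo apart was the highest. These were KIF5C in EB ICM embryo AA at 0.279 CPM, KIF5C in EB TE embryo AD at 2.85 CPM, SLC10A4 in LB HYPO embryo AM at 2.01 CPM, LTA4H in morula W at 4.79 CPM, CAV2 in EB ICM embryo AC at 13.2 CPM and CAV2 in LB HYPO embryo AO at 3.89 CPM. The 48 counts of SLC10A4 in AM came from 14 cells, of which 1 was over TPM 1. In the seventh, LTA4H in LB HYPO, the embryo apart was the lowest, AL, at 12.1 CPM from 23 counts in a single cell.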

How the results depend on the processing

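The alternatives changed how many genes were called far more than the direction of the members. Of the recomputed log2 differences of the members between TE and HYPO groups, 299 kept direction and side of the threshold, 14 newly passed it, 19 no longer passed it and 1 changed sign: UCHL1 for LB HYPO minus Sph HYPO was 0.37 with limma on log2(TPM + 0.1). Shares of cells over TPM 0 or 5 stayed within the interval in 82 cases and left it in 2 (KIF5C), and all 42 mean TPM values stayed within 1 SD when averaged over embryos. For comparisons in the order LB HYPO against Sph HYPO, TE against LB HYPO, TE against Sph HYPO, ICM against LB EPI, ICM against Sph EPI, LB EPI against LB HYPO and Sph EPI against Sph HYPO, 24, 416, 278, 428, 990, 283 and 167 genes were called. DESeq2 called 370, 901, 736, 1440, 2096, 1394 and 1448. limma on log2(TPM + 1) called 9, 633, 974, 1879, 683 and 302, and on log2(TPM + 0.1) 9, 623, 1012, 1914, 663 and 321, without TE against LB HYPO, where the count stayed within 1.5 times. The first 4 pools gave 37, 238, 150, 123, 452 and 113 in the first 6 comparisons and the last 4 pools 39, 77, 129, 195, 374, 64 and 89 in all 7. All 7 groups in one model gave 1256 and 1107 for TE, 755 for ICM against LB EPI, and 170 and 95 for EPI against HYPO. With the embryo as a replicate block, EPI against HYPO gave 20 at LB and 82 at Sph, and no call of a list gene changed.

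Of the members, 1 was called in each TE comparison. Against LB HYPO this became 0 in the first and in the last 4 pools, 2 with limma and 3 in the joint model. The 3 included SLC10A4, which met the filter through other groups. Against Sph HYPO it became 0 with DESeq2, without the filter and in the last 4 pools. It stayed 1 in the first 4 pools with KIF5C in place of UCHL1, and became 3 with limma and 4 in the joint model. The 4 included GPR50, which met the filter through other groups. Of the list genes, 2, 3, 0 and 1 were called in the 4 EPI comparisons. DESeq2 gave 5, 6, 5 and 7. limma gave 6 for ICM against Sph EPI and 3 for LB EPI against LB HYPO. The first and the last 4 pools gave 1 each in both ICM comparisons, as did no TMM and no filter for LB EPI, the first 4 pools gave 1 for LB EPI against LB HYPO, and the joint model gave 1 for it and 0 for Sph EPI against Sph HYPO.

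Leaving out each embryo in turn, LB HYPO against Sph HYPO gave 17 to 110 genes (110 without Sph HYPO F). TE against LB HYPO gave 193 to 472, with 193, 222, 262 and 276 without LB HYPO AO, AM, AN and AL and 253 and 268 without TE AB and AC. TE against Sph HYPO gave 173 (without Sph HYPO F) to 317. ICM against LB EPI gave 239 to 428 (239 without AP, 269 without AQ) and ICM against Sph EPI 492 to 1003 (492 without F, 529 without D, 530 without C). LB EPI against LB HYPO gave 138 to 294 (138 without EPI AQ, 146 without EPI AP, 163 without HYPO AM), and Sph EPI against Sph HYPO 78 to 583 (78 without EPI E, 108 and 109 without EPI C and F, 583 without HYPO F). Members called ranged from 0 to 1 in both TE comparisons, with 0 against LB HYPO without AO alone, and 0 against Sph HYPO without Sph HYPO F or any TE embryo but AD. Without AD the 1 was KIF5C and without Sph HYPO C it was CAV2, not UCHL1. List genes called ranged from 1 to 2 for ICM against LB EPI (1 without EPI AO or AP or ICM AA, AC, AD, AE, AF, AG or AI), from 2 to 4 for ICM against Sph EPI and from 0 to 1 for LB EPI against LB HYPO (1 without EPI AO). For Sph EPI against Sph HYPO the count was 1 throughout. Groups of 3 to 5 embryos after the early blastocyst, some with 1 or 2 cells, limit what these tests can show. Where a call or count changed, the cause was not tested.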

Other observations

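The morula cell without an embryo in its identifier entered no embryo sum. It held 2488103 counts, of which 199 were on CAV2 (41.8 TPM) and 1 on LTA4H, and it had no count on UCHL1, KIF5C, SLC10A4 or GPR50. It is 1 of the 6 morula cells with CAV2 over TPM 1.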
